A study of Mus musculus with 12 samples.

Results

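Internal fragments of the mitochondrial 16S rRNA were taken as the sequences that matched the mouse mtDNA without a mismatch on the forward strand, lay mostly in mt-Rnr2, and started neither at the first base of the gene nor in the group of fragments at its 3′ end. They were 44 of the 204 unique mito-piRNA sequences of the series and 44 of the 75 exact forward matches in the 16S rRNA. The rule for members used position, not read counts, but a sequence is deposited at all only where it passed the count cut-off described below. The nearest sequences outside it were 20 fragments whose 5′ end is position 1094, where the gene begins, and 11 fragments at the 3′ end, of which the first starts at position 2643. The internal members themselves start between positions 1177 and 2566.

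The libraries came from gonads of CD1 mouse embryos, with no mutation or treatment named. Primordial germ cells (PGCs) and gonadal somatic cells (SCs) were separated with magnetic beads that carry anti-CD15, an antibody against a surface antigen of PGCs, so SCs are the fraction the beads did not hold. Embryos of either sex were collected at embryonic days E11.5, E12.5 and E13.5, counted in days post coitum, which gives 12 conditions and 1 small RNA library for each. The embryonic gonads of several litters were pooled per condition, so no condition has a replicate library, and the labelled cell types could not be checked against marker genes because the counts cover mitochondrial small RNAs only. Libraries are named below by cell type, day and sex, as in PGC11M for male PGCs at E11.5.

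The 16S rRNA is the RNA core of the large subunit of the mitochondrial ribosome. Its gene, mt-Rnr2, has no intron and no coding sequence or UTR. The forward strand of the gene is transcribed as part of a long RNA in which tRNAs lie between the longer genes, and the rRNA is freed at its first and last base when the flanking tRNAs are cut out. An internal fragment starts at neither of these cuts. piRNAs are small RNAs that bind PIWI proteins and are best known for silencing transposons in germ cells. The sequences were called mito-piRNAs by their match to a piRNA database, and no PIWI binding was measured in these cells.

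Most internal fragments came from a short stretch near the 5′ end of the rRNA. It is printed here to show how close their starts lie, as the forward strand of chrM:1177-1312 in GRCm39 (T stands for U), and the capitals mark each base at which at least 1 member starts.
16S window: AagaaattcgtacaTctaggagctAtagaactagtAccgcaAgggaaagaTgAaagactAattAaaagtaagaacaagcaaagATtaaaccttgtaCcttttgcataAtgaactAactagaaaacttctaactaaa

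The 10 members with the most reads over the 12 libraries held 7351 of the 12822 internal reads (57.3%). Their sequences are shown because the values below turn on them, in order of reads and with the last base in capitals, since 3′ ends differed between libraries.
16S:1191-1211: tctaggagctatagaactagT
16S:1804-1835: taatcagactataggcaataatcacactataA
16S:1218-1235: agggaaagatgaaagacT
16S:1273-1290: ccttttgcataatgaacT
16S:2566-2584: acgaaaggacaagagaaaT
16S:1236-1257: aattaaaagtaagaacaagcaA
16S:1597-1616: accattgtaggcctaaaagC
16S:1291-1312: aactagaaaacttctaactaaA
16S:1240-1257: aaaagtaagaacaagcaA
16S:1940-1957: aaaaacatcacctctagC

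One library stood apart in these ends. In PGC13F, 12 of the 13 listed members were listed in no other library, and 9 of those 12 shared their 5′ end with a member listed elsewhere. The sequences below, chosen after their values were seen, are the forms in PGC13F at 5 of these 5′ ends, again with the last base in capitals, and each can be read against the form of the other libraries, of which 4 are printed above and 16S:1212-1235 is added.
16S:1212-1235, other libraries: accgcaagggaaagatgaaagacT
16S:1212-1233, PGC13F: accgcaagggaaagatgaaagA
16S:1218-1233, PGC13F: agggaaagatgaaagA
16S:1273-1288, PGC13F: ccttttgcataatgaA
16S:1804-1836, PGC13F: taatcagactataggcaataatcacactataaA
16S:1940-1956, PGC13F: aaaaacatcacctctaG

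The deposited counts are raw reads per unique sequence, and a sequence under the authors' cut-off of 10 CPM (reads per 1000000) in a library is missing from that library. The mito-piRNA reads deposited per library ranged from 16061 to 59545. The lowest count listed in a library was between 66 and 109 reads. Levels were expressed as reads per 1000000 small RNA reads of the sequences that passed the cut-off in that library (rpm). This base is smaller than all reads of the library, so an rpm is higher than a CPM over all reads, and the floor stood at 14.6 to 17.8 rpm. A member that is not listed was therefore below about that level, and was not shown to be absent.

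The internal fragments held 12822 of the 403352 mito-piRNA reads (3.18%) and 8.79% of the 145901 reads that matched the 16S rRNA exactly. For comparison, the fragments from the first base held 113114 reads and those at the 3′ end held 19965 reads, and both were listed in 12 libraries. Internal fragments were listed in 11 libraries, all but SC12F. Another 3 sequences lay at internal positions with 1 mismatch and were not counted as members.

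In length, the members ran from 16 to 33 nt with a median of 22 nt. Of the 44, 17 were at least 24 nt long and held 30.2% of the internal reads. Their GC content ranged from 22.7% to 50.0%, with a median of 31.4%.

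The internal fragments covered 358 of the 1582 bases of the gene (22.6%), in 10 separate stretches. The window chrM:1177-1312, bases 84 to 219 of the rRNA, spans 136 nt or 8.60% of the gene. It held 27 of the 44 sequences (61.4%), 14 of the 26 distinct 5′ ends and 8250 reads (64.3%). With PGC13F left out, it held 19 of the 32 members that remained and 63.0% of their reads.

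Inside this window a single gap divides the members into adjoining stretches. The first, from 1177 to 1257, held 17 sequences and 5690 reads in 9 libraries. The second, from 1260 to 1312, held 10 sequences and 2560 reads in 7 libraries. No member touched the 284 bases that follow.

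Downstream, the stretch from 1780 to 1836 held most reads, with 6 sequences and 1817 reads (14.2%) in 8 libraries. The stretch from 1597 to 1616 held 2 sequences and 906 reads in 4 libraries. Another 2 sequences, with 523 reads in 4 libraries, lay between 1940 and 1957. The stretches at 1734 to 1756 (98 reads) and 1886 to 1915 (194 reads) were listed in 1 library each. After 1957 no member lay on the next 468 bases. Toward the 3′ end the stretches from 2426 to 2464, from 2466 to 2483 and from 2566 to 2584 held 273, 116 and 645 reads, the last in 5 libraries.

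Several members shared an end, so they are not independent of each other. The 44 sequences had 26 distinct 5′ ends and 32 distinct 3′ ends, and 11 of the 5′ ends carried more than 1 sequence, 29 sequences in all. Some members also lay end to end. At 5 sites the last base of a member was followed directly by the first base of another, at 1211 and 1212, 1235 and 1236, 1239 and 1240, 1290 and 1291, and 2441 and 2442. The sequences 16S:1191-1211, 16S:1212-1235 and 16S:1236-1257 thus adjoin without a missing base, as do 16S:1273-1290 and 16S:1291-1312. At each of the 5 sites the second member begins with A, which is also the first base of the adapter described below. The part of adapter trimming in these ends was not tested. At 2441 and 2442 the members came from different libraries, PGC13M and PGC13F.

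Of the 44 members, 28 began with A (63.6%), 12 with T, 4 with C and 0 with G. By reads the shares were 57.9% A, 30.8% T and 11.3% C. Over the region from which they were drawn the base shares were 38.0% A, 26.2% T, 19.3% C and 16.5% G. These shares are a description, since sequences with a common 5′ end count together.

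Whether a member also matched the nuclear genome went with its length. With up to 1 mismatch on either strand, 23 of the 44 members had a match in the nuclear chromosomes of GRCm39 and 21 had none, the latter with 5196 reads (40.5%). All 15 members under 20 nt had such a match, against 4 of 12 members of 20 to 23 nt and 4 of 17 of at least 24 nt. Among the members of at least 24 nt, 0 of the 11 in the window chrM:1177-1312 and 4 of the 6 elsewhere had a match.

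The best listed member, 16S:1191-1211, had no nuclear match. The shorter 16S:1218-1235 had 1 exact match and 24 with 1 mismatch, and the 16 nt form of PGC13F at the same 5′ end had 20 exact matches and 785 with 1 mismatch. 16S:1804-1835 and 16S:1597-1616 had 1 match each, the first with 1 mismatch and the second exact. Reads of a member with an exact nuclear match cannot be assigned to either genome by sequence.

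Internal reads were concentrated in 4 libraries, PGC11M, PGC13F, PGC13M and SC13F, which held 10576 of the 12822 reads (82.5%). PGC13M had the highest level, with 23 sequences at 586.7 rpm. PGC11M followed with 19 sequences at 524.9 rpm. PGC13F and SC13F had nearly the same level, 418.3 rpm with 13 sequences and 415.5 rpm with 18 sequences.

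The other 8 libraries were lower. SC11M had 152.7 rpm with 7 sequences and SC13M 97.2 rpm with 5. SC12M and PGC12M had 3 sequences each, at 83.1 and 64.9 rpm. A single member was listed in SC11F (20.3 rpm), PGC12F (16.9 rpm) and PGC11F (16.4 rpm), and 0 members in SC12F. These last 4 libraries were all female and all at E11.5 or E12.5.

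As a share of the exact 16S reads of the same library, internal reads were 18.6% in SC13F (95% Wilson interval 18.0% to 19.2%), 15.1% in PGC11M (14.6% to 15.7%), 14.1% in PGC13M (13.7% to 14.6%) and 12.0% in PGC13F (11.57% to 12.53%). These intervals cover counting error only, and not the spread between samples. In the other libraries that listed a member, the share was between 1.17% in PGC12F (0.961% to 1.42%) and 5.06% in SC12M (4.63% to 5.52%). In rpm, the order of the libraries was in part that of the fragments from the first base. SC12F was lowest in both, at 0 and 670 rpm, and PGC13M was high in both, at 586.7 and 2993 rpm. SC13M differed, with the highest level of fragments from the first base (3200 rpm) and an internal level of 97.2 rpm. Its internal share was 2.64% (2.41% to 2.90%).

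Single members were seldom far above the floor of their library. Over the 94 entries, each 1 member in 1 library, counts ran from 67 to 300 reads with a median of 123. The median entry was 1.34 times the lowest count listed in its library and the highest 3.33 times, and 75 of the 94 entries (79.8%) were under 2 times. The median was 6.82 times for the 141 entries of fragments from the first base and 2.57 times for the 80 entries at the 3′ end, a difference that was not tested. Members just under the cut-off would not be listed, and in bulk samples fewer cells of a type and less RNA per cell cannot be told apart.

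Of the 44 members, 27 were listed in exactly 1 library, 4 in 2 libraries, and 13 in at least 3. The 27 had 83 to 300 reads each and 27.3% of the internal reads together. In PGC13F 12 members were of this kind, against 6 in PGC13M, 4 in SC13F, 3 in PGC11M, 1 in PGC12M and 1 in SC11F.

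The member listed most often was 16S:1191-1211, with 1365 reads in 8 libraries, which were all 6 male libraries and 2 of the 6 female ones. In PGCs it had 40.1 rpm in PGC11M, 19.1 rpm in PGC12M, 44.9 rpm in PGC13F and 45.7 rpm in PGC13M. In SCs it had 29.5 rpm in SC11M, 30.1 rpm in SC12M, 31.3 rpm in SC13F and 20.3 rpm in SC13M. The female libraries at E11.5 and E12.5 did not list it. In the libraries that listed it, the female values lay within the range of the male ones.

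The longest of the leading members, 16S:1804-1835 at 32 nt, had 1082 reads in 7 libraries. It had 28.8 rpm in PGC11M, 16.9 rpm in PGC12F, 39.3 rpm in PGC13M, 31.3 rpm in SC11M, 32.0 rpm in SC12M, 28.5 rpm in SC13F and 27.3 rpm in SC13M. It was the sole member in PGC12F, and PGC13F listed a form 1 base longer in its place. The levels in the SC libraries that listed it differed little, and those in PGCs spanned a wider range.

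Next came 16S:1218-1235, with 1019 reads in 6 libraries. It had 16.4 rpm in PGC11F, 55.3 rpm in PGC11M, 26.8 rpm in PGC12M, 33.5 rpm in PGC13M, 24.3 rpm in SC11M and 31.7 rpm in SC13F. PGC11M was the highest, and PGC11F listed this member alone.

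At 920 reads in 6 libraries, 16S:1273-1290 was the leading member of the second stretch. Its values were 37.6 rpm in PGC11M, 35.4 rpm in PGC13M, 19.5 rpm in SC11M, 21.0 rpm in SC12M, 38.7 rpm in SC13F and 18.7 rpm in SC13M. PGC11M, PGC13M and SC13F had 35.4 rpm or more and the other libraries 21.0 rpm or less, with male libraries on both sides.

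Near the 3′ end of the rRNA, 16S:2566-2584 had 645 reads in 5 libraries. It had 41.1 rpm in PGC11M, 30.8 rpm in PGC13M, 17.0 rpm in SC11M, 20.7 rpm in SC13F and 14.8 rpm in SC13M. Both PGC values were above all 3 SC values, with the other libraries unlisted.

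The other 5 leading members were listed in 3 or 4 libraries, and each of them in PGC11M, PGC13M and SC13F. 16S:1236-1257 had 34.1, 27.7 and 27.7 rpm in these, and 16.1 rpm in SC13M. 16S:1597-1616 had 25.1, 31.6 and 23.8 rpm, and 15.4 rpm in SC11M. For 16S:1291-1312 (29.4, 27.5 and 22.5 rpm), 16S:1240-1257 (30.6, 21.8 and 20.3 rpm) and 16S:1940-1957 (22.8, 26.5 and 20.4 rpm) no other library was listed.

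The lists of PGC11M, PGC13M and SC13F were much alike. PGC11M and PGC13M shared 16 members, 84.2% of the first list and 69.6% of the second. PGC11M and SC13F shared 13 (68.4% and 72.2%), and PGC13M and SC13F shared 14 (60.9% and 77.8%). All 3 libraries listed the same 13 members, of which 1, 16S:1191-1211, was also listed in PGC13F.

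With each of these libraries PGC13F shared that 1 member, but it shared 7, 9 and 7 of its 12 distinct 5′ ends with PGC11M, PGC13M and SC13F. The forms in PGC13F ended 2 bases earlier than the main form of the other libraries at 1212, 1218, 1260 and 1261, and 1 base earlier at 1227 and 1940. At 1273 PGC13F listed a form 2 bases shorter and another 2 bases longer, and at 1804 a form 1 base longer. At 1191 the end was the same. So a member missing from PGC13F can have its 5′ end there under another sequence, and the 5′ ends were also compared as sums over their sequences.

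The ends themselves differed in base. In the other libraries together, 49.9% of internal reads ended in T, 26.9% in A, 23.2% in C and 0% in G. In PGC13F, 72.1% ended in A, 17.2% in G, 10.7% in T and 0% in C. The base of the mtDNA that follows the last base of the fragment was A for 95.0% of the internal reads of the other libraries. In PGC13F it was C for 77.3% of reads, which are 11 of its 13 members, T for 12.0% and A for 10.7%.

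A difference of this kind was also seen outside the internal fragments. Among all other exact mito-piRNA reads, the following base was A in 29.6% of the reads of PGC13F and in 52.3% to 64.0% of those of the other 11 libraries, and C in 51.1% against 10.1% to 16.4%. The authors trimmed read ends that matched an adapter beginning with A, down to an overlap of 1 base. Its part in these 3′ ends was not tested, and the 3′ ends printed above are those of the trimmed reads.

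Counted by 5′ end, the start at 1804 had the most reads, with 1590 from 4 sequences in 8 libraries. Its listed values ran from 16.9 to 58.3 rpm with a median of 31.7 rpm. The start at 1273 had 4 sequences and 1452 reads in 7 libraries, at 18.7 to 81.8 rpm, the highest in PGC13F. The start at 1218 had 4 sequences and 1415 reads in 7 libraries, at 16.4 to 90.5 rpm, the highest in PGC11M. These 3 starts each exceeded the start at 1191, which had 1 sequence and 1365 reads.

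The start at 1227 had 3 sequences of 25 to 29 nt and 557 reads in 3 libraries, all of PGCs, at 41.8 rpm in PGC11M, 19.8 rpm in PGC13F and 47.8 rpm in PGC13M. With PGC13F left out, the starts at 1191, 1218, 1227, 1273 and 1804 kept 1138, 1190, 457, 1038 and 1336 reads in 7, 6, 2, 6 and 7 libraries.

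Cell type, sex and day were then compared over libraries, each group holding all levels of the remaining factors. The SD of a group thus includes the differences due to those factors, and the p-values measure the spread between conditions, not between replicates. PGCs had 271 ± 267 rpm of internal fragments and SCs 128 ± 151 rpm (SD, n = 6 each). The 6 PGC values ran from 16.4 to 586.7 rpm with a median of 241.6, and the 6 SC values from 0 to 415.5 rpm with a median of 90.2, so the groups overlapped. Matched by sex and day, SCs had the higher level in 2 of 6 pairs. On the log2(rpm + 1) scale SCs were lower by a difference of -1.31 (two-sided exact permutation test, p = 0.470, adjusted p = 0.602 over 6 comparisons), and by -0.95 without PGC13F. It was -0.20 without SC12F, the library with 0 members, and -2.84 per 1000000 deposited mito-piRNA reads. These values take an unlisted member as 0 reads. With each unlisted sequence set to the lowest count of its library instead, the difference was -0.25 (exact permutation test, p = 0.0368, adjusted p = 0.110). The lowest count itself stood at 15.82 to 17.79 rpm in PGC libraries and at 14.55 to 15.79 rpm in SC libraries. This setting therefore cannot tell a difference in internal fragments from a difference in the floor.

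Male libraries had 252 ± 238 rpm and female libraries 148 ± 208 rpm (SD, n = 6 each). The male values ran from 64.9 to 586.7 rpm with a median of 125.0, and the female values from 0 to 418.3 rpm with a median of 18.6. Matched by cell type and day, the male library had the higher level in 5 of 6 pairs. The exception was SCs at E13.5, with 415.5 rpm in the female and 97.2 rpm in the male library. The other 16S fragments were on average also higher in male libraries. From the first base they had 2256 rpm in male and 1324 rpm in female libraries, and at the 3′ end 417 and 217 rpm. In PGCs at E12.5 the female library was higher in both (1196 against 1178 rpm and 232 against 212 rpm). For the internal fragments the difference on the log2(rpm + 1) scale was 2.41 (two-sided exact permutation test, p = 0.117, adjusted p = 0.247), and 3.15 without PGC13F (p = 0.0411, adjusted p = 0.247). Without SC12F it was 1.40 (exact permutation test, p = 0.234, adjusted p = 0.468). It did not pass the threshold of an adjusted p of 0.05. With unlisted sequences at the lowest count of the library it was 0.06 (exact permutation test, p = 0.656, adjusted p = 0.787). This fill sets each unlisted member near the highest level it could have, which draws the libraries together whatever the true values. It therefore cannot show whether the difference between the sexes rests on taking unlisted members as 0.

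By day, internal fragments were lowest at E12.5, with 41.2 ± 39.2 rpm. At E11.5 they had 179 ± 239 rpm, and by E13.5 they had 379 ± 204 rpm (SD, n = 4 libraries a day). The 4 libraries of E12.5 ran from 0 to 83.1 rpm and those of E13.5 from 97.2 to 586.7 rpm, so these groups did not overlap. Those of E11.5, from 16.4 to 524.9 rpm, overlapped both. Between E12.5 and E13.5 the fragments from the first base (670 to 1312 and 1502 to 3200 rpm) did not overlap either. Nor did those at the 3′ end (19.1 to 247.9 and 316.0 to 575.0 rpm). For the internal fragments the days did not differ beyond the spread within them at the threshold used (exact permutation test of the F statistic, F = 3.35, p = 0.0800, adjusted p = 0.247). F was 2.42 without PGC13F, and 1.23 with unlisted sequences at the lowest count. With the internal sequences of 1 mismatch included it was 4.87 (exact permutation test, p = 0.0100, adjusted p = 0.0603).

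The share of internal reads in the exact 16S reads, in which the depth of a library cancels, also overlapped between the cell types and between the sexes. Unlike the rpm, it overlapped between E12.5 (0% to 5.06%) and E13.5 (2.64% to 18.6%). It was 8.06% ± 6.43 in PGCs and 5.49% ± 6.70 in SCs, a difference of -2.57 percentage points (SD, n = 6 each, two-sided exact permutation test, p = 0.513, adjusted p = 0.602). It was 7.71% ± 5.43 in male and 5.84% ± 7.66 in female libraries, a difference of 1.87 percentage points (SD, n = 6 each, exact permutation test, p = 0.602, adjusted p = 0.602). With unlisted sequences at the lowest count this difference turned to -8.56 points (exact permutation test, p = 0.0325, adjusted p = 0.110), and that between the cell types was -0.02. In this setting the fill enters the internal level of every library, so the share also turns on the other 16S reads. Fragments from the first base were lower in female (1324 rpm) than in male libraries (2256 rpm). The reversal is therefore not read as a difference in internal fragments. By day the share was 5.80% ± 6.40, 2.67% ± 2.47 and 11.9% ± 6.72 (SD, n = 4 each, exact permutation test, F = 2.83, p = 0.123, adjusted p = 0.247). Single libraries moved these values. By day F was 6.57 without SC13M (exact permutation test, p = 0.0223, adjusted p = 0.134), 5.32 without PGC11M (p = 0.0317, adjusted p = 0.156) and 1.53 without SC13F. By sex the difference was 0.393 points without PGC11M and 4.43 points without SC13F, and by cell type it was -5.19 points without SC13F and -1.15 points without PGC11M.

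For single members, the quasi-likelihood test of edgeR was run over all 97 sequences of the series listed in at least 3 libraries, of which 13 were internal fragments. At an adjusted p under 0.05 the test called 2.06% of all sequences between SCs and PGCs, 0% between the sexes and 0% by day. It called 0 of the 13 members in each of the 3 comparisons, where 0, 2 and 0 members had an unadjusted p under 0.05. All 97 sequences were not counted at that unadjusted threshold, so no result is read from the 2 members. The lowest adjusted p of a member was 0.936 by cell type, 0.726 by sex and 0.700 by day. The 13 members are those listed often enough to be tested, and the other members were listed in 1 or 2 libraries. Without PGC13F the test also called 0 members in each comparison, with a lowest adjusted p of 0.343 from edgeR, by sex. DESeq2, run as an alternative with its own size factors, called 16S:1191-1211 (adjusted p = 0.00276) and 16S:1273-1290 (adjusted p = 0.00276), both higher in male libraries, and 16S:1273-1290 between the cell types (adjusted p = 0.0238), higher in SCs. DESeq2 thus called 2 of 13 members by sex, against 3.09% of all 97 sequences (3 sequences), and 1 of 13 by cell type, against 14.4% (14 sequences). Over all alternatives the lowest adjusted p of a member ran from 0.00276 to 0.994 by sex and from 0.0238 to 1 by cell type.

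Summed by 5′ end, 15 internal starts were among the 45 starts tested in the same model. At an adjusted p under 0.05 the test called 2.22% of all starts by cell type, 0% by sex and 2.22% by day. It called 0 of the 15 internal starts in each comparison, with 0 at an unadjusted p under 0.05 and lowest adjusted p-values of 0.596, 0.544 and 0.377 from edgeR. With DESeq2 the starts at 1191 (adjusted p = 0.0114) and 1273 (adjusted p = 0.0289) were called as higher in male libraries, within a range of the lowest adjusted p from 0.0114 to 0.958 over all alternatives. These are 2 of 15 internal starts, against 6.67% of all 45 starts (3 starts) by sex, and by cell type DESeq2 called 4.44% of all starts. In the sums, no internal start was called between SCs and PGCs by either tool. The start at 1273 has 81.8 rpm in PGC13F, where 16S:1273-1290 was not listed. No fold changes are given for members or starts, since the groups compared include libraries in which they are not listed.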

How the data were processed

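Small RNA libraries of 12 conditions, 1 library each, were analysed. The authors deposited raw read counts per unique sequence: per the study's methods, reads were trimmed with Trim Galore, checked with FastQC and collapsed, sequences under 10 CPM were discarded, and the rest were aligned with Bowtie to nuclear DNA and mtDNA and to a piRNA database with up to 1 mismatch. The submitters' processing notes name the same tools. Here each sequence was placed on the GRCm39 mtDNA (16299 bp, GENCODE), and the nuclear chromosomes were scanned with up to 1 mismatch (tested on 60 simulated patterns, all found). A sequence missing from a library was taken as 0 reads. Levels are reads per 1000000 reads of all sequences over 10 CPM in the library, a total taken from the study (rpm), since the deposited counts cover part of these reads. Precision is limited by counts of 67 to 300 reads per member and library.

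Total levels and shares were compared with exact permutation tests on log2(rpm + 1) or percent, with Benjamini-Hochberg adjustment over 6 comparisons. Sequences and 5′ ends were tested on counts with edgeR 4.0.16 (quasi-likelihood, additive cell type, sex and day, R 4.3.3), adjusted over all sequences or 5′ ends listed in at least 3 libraries, with DESeq2 1.42.0 as an alternative. On 20 simulated data sets of 97 sequences for the comparison of cell types, with 20 sequences changed 4-fold and no cut-off on low counts, edgeR called 100% of those, and 4.76% of its calls were false. The simulated counts had the same fixed spread for all sequences and no unlisted values. These rates therefore do not show how often the test would find such a change in the deposited counts. Other alternatives were TMM factors, other denominators, cut-offs, pseudocounts, lengths, positions and filters, a block of pairs, and leaving out each library. Named were the 10 members with most reads, members in at least 8 libraries, and 5′ ends with at least 3 sequences or in at least 6 libraries. The members, lists and tests were chosen with earlier results of these data known. The other steps ran in Python 3.11.15, with numba 0.67.0 for the scan, and pandas 2.3.3, numpy 2.4.6 and scipy 1.17.1.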

Additional observations from a re-analysis of the deposited data

Results flagged for a closer look

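Among the 6 SC libraries, SC13F lay far from the others in both measures of the internal 16S fragments. It had 415.5 rpm, and the next SC library, SC11M, had 152.7 rpm. Its internal share of the exact 16S reads was 18.6%, and the next, SC12M, had 5.06%. Chance marks a library as far apart in about 1 in 20 groups. Over both measures 14 groups were examined, and both values come from the same reads.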

How the results depend on the processing

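Of the recomputed values, 218 kept their direction and side of the threshold, or stayed within 1.5 times for a count, and 5 did not. With DESeq2 and its own size factors 1 member was called by cell type and 2 by sex, and 2 internal 5′ ends by sex, against 0 with edgeR. Of all sequences DESeq2 called 14.4% by cell type and 3.09% by sex, and of all 5′ ends 6.67% by sex. With exact nuclear matches alone, 12 members had a match in place of 23. With each unlisted sequence at the lowest count of its library, the difference in share between male and female libraries reversed from 1.87 to -8.56 percentage points (adjusted p = 0.110), and the log2 differences in rpm shrank to 0.06 by sex and -0.25 by cell type. This fill draws the libraries together and itself differed between the cell types, so it cannot decide these comparisons. No comparison of level or share passed under any alternative, with adjusted p-values from 0.0603 to 0.998. Over all alternatives the log2 difference in rpm ran from -2.84 to -0.20 (SCs against PGCs) and from 0.06 to 3.83 (male against female), and F by day from 1.23 to 4.87. Without each library in turn, the log2 difference in rpm ran from -1.94 to -0.20 (SCs against PGCs) and from 1.40 to 3.15 (male against female), and F from 2.29 to 4.15. The difference in share ran from -5.19 to -1.15 and from 0.393 to 4.43 percentage points, and F from 1.53 to 6.57. No condition has a replicate, so libraries were paired by their other 2 factors. In this replicate block the exact permutation p in rpm was 0.219, 0.125 and 0.0463 for cell type, sex and day (adjusted p = 0.278 for day), and 0 members were called. The cause of the DESeq2 calls was not tested; the reversal comes with the value given to unlisted sequences. Reads under 10 CPM limit every comparison.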
